A study of Homo sapiens with 6 samples.

Results

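The insulin-like growth factor binding proteins (IGFBPs) are a family of 7 secreted proteins, IGFBP1 to IGFBP7. The family was chosen by measured values of this same comparison, the opposite directions of IGFBP1 and IGFBP5 between the groups, and its members were then taken by name. Of the 7 genes, 6 were among the 25071 genes with counts and among the 15816 genes tested, and IGFBP7 was not analysed here. All libraries came from PLC/PRF/5, a human hepatoma cell line. They were made from total RNA depleted of ribosomal RNA, 48 hours after transfection with a control vector (3 libraries) or with a plasmid that overexpresses ARD1 (3 libraries). ARD1 is encoded by NAA10 and is the catalytic part of NatA, an enzyme complex that acetylates the N-termini of proteins. The labels name no selection of transfected cells, so a library may hold untransfected cells as well. They also do not say whether the replicates of a group were separate cultures, and p-values therefore rest on a spread between libraries that may be only technical.

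Insulin-like growth factors (IGFs) circulate and act in tissue fluid mostly bound to IGFBPs. The binding proteins hold IGF away from the IGF1 receptor, and proteases that cut them release it. The liver is a main source of circulating IGFs. IGFBP1 is the member most typical of hepatocytes, where insulin represses its gene and fasting, stress and low oxygen induce it. IGFBP2 is also a liver product, IGFBP3 and IGFBP5 carry IGF in a ternary complex with the acid-labile subunit IGFALS, IGFBP4 is an inhibitory member that the protease PAPPA cuts, and IGFBP6 prefers IGF2.

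The 6 measured genes lie in 4 places of the genome (GRCh38, GENCODE 29). IGFBP1 (ENSG00000146678) is on chromosome 7 at 45888357 to 45893668 on the plus strand, and IGFBP3 (ENSG00000146674) is beside it at 45912245 to 45921874 on the minus strand. IGFBP2 (ENSG00000115457) is on chromosome 2 at 216632828 to 216664436 on the plus strand, and IGFBP5 (ENSG00000115461) follows at 216672105 to 216695525 on the minus strand. In both pairs the 3′ ends of the genes face each other, 18.6 kb apart for IGFBP1 and IGFBP3 and 7.67 kb apart for IGFBP2 and IGFBP5. IGFBP4 (ENSG00000141753) is on chromosome 17 at 40443461 to 40457731 and IGFBP6 (ENSG00000167779) on chromosome 12 at 53097436 to 53102345, both on the plus strand. Exons of other annotated genes overlapped only IGFBP5 among these 6 genes, where 4.63% of exon bases lie opposite AC007563.2. The strand setting of the counting is not given in the sources used here, so those reads cannot be assigned to one gene.

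Promoter sequence was available from RefSeq (GRCh38.p14) for 5 members, IGFBP2 to IGFBP6. Shown here are the 250 bases before the RefSeq start of IGFBP5, which was far lower in the ARD1 libraries, and of IGFBP4, the member with the smallest difference. They set a strongly different gene beside a little changed one of the same family. Capitals mark TATTTAA in IGFBP5 and TATAAA in IGFBP4, the letters of a TATA-like box and of a TATA box.
IGFBP5 (chr2:216695550-216695799, minus strand): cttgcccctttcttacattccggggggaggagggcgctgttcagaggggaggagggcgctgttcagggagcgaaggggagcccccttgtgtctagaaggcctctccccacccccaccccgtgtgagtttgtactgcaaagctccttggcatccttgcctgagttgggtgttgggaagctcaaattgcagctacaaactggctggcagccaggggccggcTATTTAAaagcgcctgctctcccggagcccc
IGFBP4 (chr17:40443200-40443449, plus strand): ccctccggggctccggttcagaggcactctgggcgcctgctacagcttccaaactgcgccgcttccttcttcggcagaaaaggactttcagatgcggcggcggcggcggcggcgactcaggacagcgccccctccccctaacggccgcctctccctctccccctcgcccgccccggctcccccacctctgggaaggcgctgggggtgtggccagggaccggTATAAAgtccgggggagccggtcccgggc

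Both boxes sit close to the start. The first base of TATTTAA is 31 bases before the start of IGFBP5, and that of TATAAA 29 bases before the start of IGFBP4. Among the 35116 RefSeq promoter windows of the same length, searched on both strands, 4.17% held TATTTAA and 10.7% held TATAAA. The IGFBP5 window was 61.2% G and C with 8 CpG dinucleotides, and the IGFBP4 window 71.6% with 24, against medians of 58.0% and 11 over all windows. The other motifs searched were GGGCGG (GC box, 42.6% of windows), CCAAT (a box named by these letters, 32%), ACGTG (core of the hypoxia response element, 18.5%), GTAAACA (forkhead factors, 2.98%), TGATGNAA (core of the C/EBP-ATF composite site, 3.14%), GCCNNNGGC (AP-2, 19.8%) and TGACTCA (AP-1, 4.2%). A palindromic match was counted once, and the matches in the IGFBP5 and IGFBP4 windows did not overlap one another. The IGFBP5 window held GCCNNNGGC once and none of the other 6, and the IGFBP4 window held GGGCGG once and none of the other 6. IGFBP6 was the only member with a window that held GTAAACA, in 1 place. A match is a description of these letters and not a bound site.

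Levels are given as CPM, counts per 1000000 of the TMM-scaled library size. NAA10 checks the labels: the controls had 35.6, 32.2 and 36.2 CPM and the libraries with the ARD1 plasmid 355, 400.2 and 294 CPM, a fold of 10.1. Of its exon bases, 10.1% are shared with ARHGAP4. Libraries held 21857327 to 25011357 counts, and 3 counts, the limit that a count of 0 allows, are 0.120 to 0.137 CPM of the unscaled totals, which covers counting error only. Control replicate 1 differed more from its group than any other library (chi-square per degree of freedom 17.1 and 19.9, against 2.95 between control replicates 2 and 3 and 2.49 to 4.35 between ARD1 libraries), and values without it are given below. Of all genes tested, 64.6% passed an adjusted p of 0.05 in edgeR's quasi-likelihood test, and the libraries of the groups did not overlap for 69.6%. Of the hepatocyte markers listed, 9 of 11 were tested. Their summed level was 3477 to 4251 CPM in the control libraries and 2011 to 2084 CPM in the ARD1 libraries, with 3 markers higher and 6 lower. Transthyretin (TTR, 9 counts in all 6 libraries) and apolipoprotein A1 (APOA1, 35 counts) were too low to test. Summed endothelial markers (5 of 6 with counts) went from 70.0 to 82.7 CPM in the controls to 90.2 to 102.8 CPM, with 3 of 4 tested markers higher and 1 lower, the cadherin CDH5 (33.1 to 0.0677 CPM). The sums of fibroblast and stellate markers (6 of 7 with counts) went from 77.8 to 98.2 CPM to 17.4 to 19.98 CPM, with 1 of 4 tested higher and 2 lower. Those of immune markers (6 of 6) went from 14.5 to 15.6 CPM to 5.52 to 6.26 CPM, with both tested markers lower. All libraries came from 1 cell line, so the names of these marker lists do not mean that such cells were present. The part of these shifts in the results below was not tested. In bulk libraries fewer cells with a marker and less of its RNA per cell cannot be told apart.

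Within the family 2 members were higher in the ARD1 libraries, IGFBP1 and IGFBP6, and 4 were lower, IGFBP2, IGFBP3, IGFBP4 and IGFBP5. Since the family was picked with its difference between these groups known, fold changes of members are given with their standard errors (SE) as a description and without a test. All 6 were among the 64.6% of genes past the threshold and among the 69.6% with no overlap between the groups' libraries, and nothing is read from those counts. By direction, 32.4% of all genes passed as higher and 32.2% as lower, and 35.6% were higher and 34.0% lower without overlap. The median log2 fold change of the 6 members was -0.58, against 0.03 over all genes tested.

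IGFBP1, the insulin-repressed binding protein of hepatocytes, had 22.3 times its control level under the ARD1 plasmid. It had 281, 244 and 352 counts in the control libraries, or 12.8, 11.6 and 15.8 CPM. In the ARD1 libraries it had 7438, 7790 and 7265 counts, or 311, 292 and 293 CPM. Every ARD1 library was above every control library, and the lowest ARD1 value was 18.5 times the highest control value. The log2 fold change was 4.48 (SE 0.104), and 39 of the 15816 genes tested had a larger one.

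IGFBP5, a binding protein that also attaches to extracellular matrix, went the other way and was 30.7-fold lower. The control libraries held 20820, 17415 and 19290 counts, or 947, 828 and 866 CPM. The ARD1 libraries held 686, 733 and 739 counts, or 28.7, 27.5 and 29.8 CPM. All 3 ARD1 values lay far under the controls, with the lowest control value 27.8 times the highest ARD1 value. The log2 fold change was -4.94 (SE 0.0854), and 53 genes had a lower one. IGFBP1 and IGFBP5 both lay beyond 4 on the log2 scale in absolute terms, as did 1.01% of the genes tested.

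**Figure D1:**
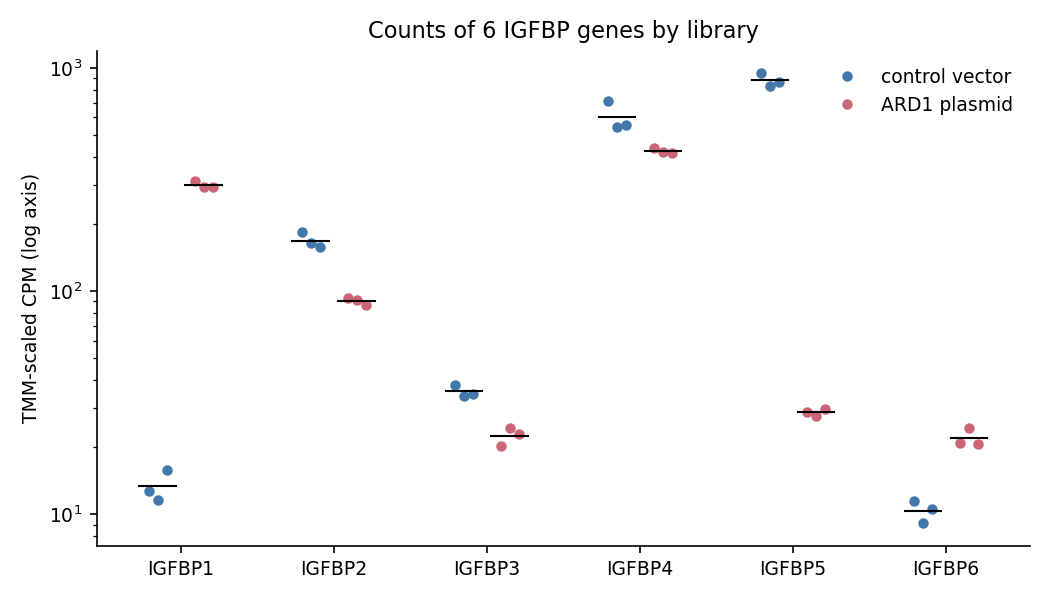
TMM-scaled CPM (log axis) of the 6 measured IGFBP genes, 1 point per library, with control vector in blue, ARD1 plasmid in red and a bar at each group's mean. IGFBP1 moves from 13.4 to 299 CPM and IGFBP5 from 880.3 to 28.7 CPM, while the other 4 genes differ by less.

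The remaining members differed by smaller amounts. IGFBP6, the member that prefers IGF2, was the other one with higher values, at 11.5, 9.13 and 10.6 CPM in the controls against 20.97, 24.3 and 20.6 CPM under ARD1. Its groups did not overlap, and the fold was 2.11 (log2 1.08, SE 0.115). It is also the member with the fewest counts, 192 to 252 in a control library.

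IGFBP2, a liver product often raised in tumours, was 1.86-fold lower. The controls had 185, 164 and 157 CPM, and with the ARD1 plasmid it had 93.5, 91.6 and 86.7 CPM (log2 difference -0.90, SE 0.0771). IGFBP3, the main carrier of IGF in serum, was 1.58-fold lower, with 38.03, 33.8 and 34.7 CPM against 20.3, 24.3 and 22.9 CPM (-0.66, SE 0.0948). For both genes the lowest control library was above the highest ARD1 library, by 1.68 times for IGFBP2 and 1.39 times for IGFBP3.

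IGFBP4, an inhibitor of IGF action, differed least, at 1.43-fold lower. The control libraries gave 712, 546 and 557 CPM and the ARD1 libraries 436, 421 and 416 CPM (a difference of -0.51 on the log2 scale, SE 0.0913). The groups did not overlap, but control replicate 1 was well above the other controls and the coefficient of variation was 15.3% in the controls against 2.44% in the ARD1 libraries. IGFBP1 showed a like contrast, 16.2% against 3.66%, with control replicate 3 highest. For the other 4 members the coefficient of variation was 6.28% to 11.4% in the controls and 3.85% to 9.37% in the ARD1 libraries.

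Directions of all 6 members held under each of the 16 alternative settings, but the size of the smaller differences depended on them. Without control replicate 1 the folds were 21.6 higher for IGFBP1, 29.8 lower for IGFBP5, 2.21 higher for IGFBP6, and 1.79, 1.53 and 1.31 lower for IGFBP2, IGFBP3 and IGFBP4. With library totals in place of TMM factors the all-gene median log2 fold change was 0.30 in place of 0.03, and all 6 members shifted upward too, IGFBP4 to -0.24 and IGFBP6 to 1.34. With trends of GC content and transcript length removed per library, IGFBP4 came to -0.10, IGFBP6 to 1.53 and IGFBP2 to -0.69. IGFBP3 stayed at -0.64, IGFBP1 at 4.53 and IGFBP5 at -4.93. IGFBP4 (62.5%) and IGFBP6 (64.1%) have the highest GC content among the 6 genes, which otherwise lie at 49.5% to 57.1%.

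**Figure D2:**
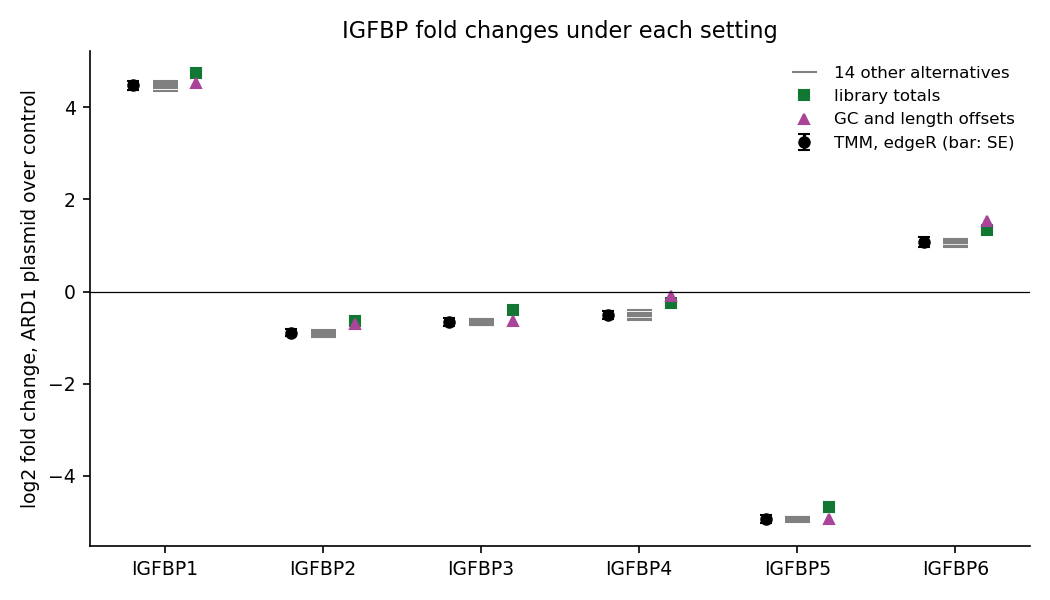
log2 fold change of each IGFBP gene, ARD1 plasmid over control vector, in the TMM-scaled edgeR fit (black, bar is the SE) and under 16 alternatives. IGFBP1 and IGFBP5 stay near 4.48 and -4.94, and IGFBP4 comes closest to 0 with GC and length offsets, at -0.10.

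Levels of different genes were compared per length, as CPM per kb of exon. In the control libraries the order was IGFBP4 at 274.9 ± 42.2 (SD, n = 3), IGFBP5 at 136.6 ± 9.46, IGFBP2 at 35.4 ± 3.03, IGFBP1 at 8.10 ± 1.31, IGFBP3 at 7.77 ± 0.488 and IGFBP6 at 7.72 ± 0.878 CPM per kb. With this length the last 3 overlapped each other over the control libraries and have no order beyond their spread. In the ARD1 libraries IGFBP4 stayed first at 192.8 ± 4.71 CPM per kb. IGFBP1 was next at 181 ± 6.61, then IGFBP2 at 19.0 ± 0.731, IGFBP6 at 16.3 ± 1.53, IGFBP3 at 4.92 ± 0.445 and IGFBP5 at 4.45 ± 0.178. IGFBP4 and IGFBP1 differed by a ratio of only 1.07 there, although their libraries did not overlap (189.0 to 198.0 against 176.7 to 188.3), and IGFBP3 and IGFBP5 overlapped. The place of IGFBP3 in both orders depends on the length used, since its exon union is 4571 bases and its longest transcript 2412 bases.

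Per kb of exon, the composition of the family differed between the groups more than its sum. The family was picked for the opposite directions of IGFBP1 and IGFBP5. A shift in composition follows from that choice and is given as a description only. IGFBP5 was 27.5%, 29.7% and 30.2% of the summed CPM per kb of the 6 genes in the control libraries and 1.04%, 1.03% and 1.13% in the ARD1 libraries. IGFBP1 was 1.45%, 1.62% and 2.15% in the controls and 43.8%, 42.6% and 43.3% in the ARD1 libraries. IGFBP4 held the largest share in all 6 libraries, 56.8% to 60.6% in the controls and 46.01% to 46.2% in the ARD1 libraries. The sum over the 6 genes was 534, 432 and 446 CPM per kb in the controls and 430.4, 415 and 409 in the ARD1 libraries, so the lowest control (432.0) lay just above the highest ARD1 library (430.4). The control mean was 1.13 times the ARD1 mean, and control replicate 1 alone lay far above the rest. TMM factors were 0.880 to 0.931 in the controls and 1.09 to 1.10 in the ARD1 libraries. The sum differed by less than these factors, so with library totals it is not lower in the ARD1 libraries. Without length scaling the sum was 1906, 1591 and 1642 CPM against 910.4, 880.6 and 868 CPM, because IGFBP5 has the longest exons of the family, 6.44 kb against 1.65 kb for IGFBP1.

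**Figure D3:**
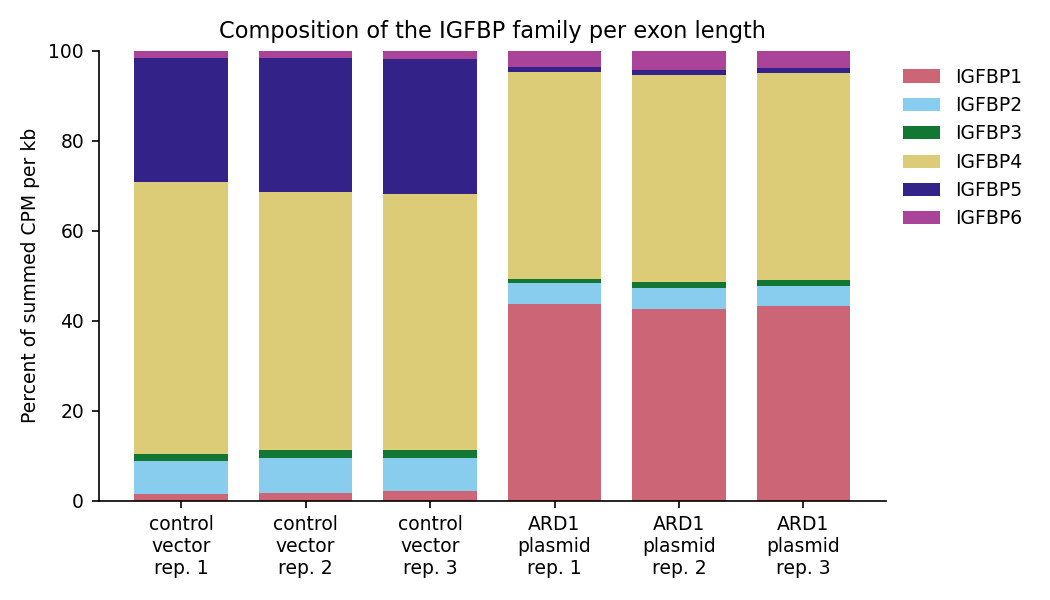
Share of each IGFBP gene in the summed CPM per kb of exon, 1 bar per library, with control vector libraries on the left and ARD1 plasmid libraries on the right. IGFBP5 takes 29.1% of the controls and 1.06% of the ARD1 libraries on average, and IGFBP1 1.74% and 43.2%.

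The ratio of IGFBP5 to IGFBP1 per kb went from 19.01, 18.3 and 14.06 in the control libraries to the inverse, with IGFBP1 exceeding IGFBP5 by 42.3, 41.4 and 38.3 times in the ARD1 libraries. The ratio of IGFBP4 to IGFBP1 per kb was 41.8, 35.4 and 26.5 in the controls and 1.05, 1.08 and 1.07 in the ARD1 libraries. Such ratios within a library do not depend on the scaling between libraries. They can shift with trends of GC content and length that differ between libraries. With these trends removed, the log2 fold changes of IGFBP4 and IGFBP1 moved by 0.41 and 0.05. The ratios and shares were not recomputed under that setting.

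Neighbouring members differed in direction on chromosome 7 and in the size of the difference on chromosome 2. On chromosome 7, IGFBP1 was higher and IGFBP3 lower, and no other gene within 250 kb of either was tested. On chromosome 2, IGFBP5 and IGFBP2 were both lower but by 30.7 and 1.86 times. The ratio of IGFBP5 to IGFBP2 per kb was 3.74 to 4.08 in the controls and 0.222 to 0.254 in the ARD1 libraries. The nearest tested gene beyond that pair, RPL37A, a ribosomal protein gene, was at 283 and 205 CPM and also fell (log2 fold change -0.46). Ribosomal protein genes often have near-identical copies, how reads shared with these were counted is not known, and the value is uncertain. Around IGFBP4, 7 of 9 tested genes did not pass, where 64.6% of all genes tested passed. The nearest on one side, TOP2A, a topoisomerase of dividing cells, was at 380.5 and 405 CPM (log2 fold change 0.09). The nearest on the other side, TNS4, an adhesion adaptor 18.1 kb away, fell from 10.6 to 0.225 CPM (-5.53). Around IGFBP6, 3 of 14 tested genes rose and 9 fell, where 32.4% of all genes tested passed as higher and 32.2% as lower. The nearest on the side of lower coordinates was SPRYD3, 18.0 kb away, which rose (0.57). TNS2, an adhesion adaptor beyond it at 33.1 kb, fell (-1.28). The nearest on the other side was CSAD, an enzyme of taurine synthesis 55.3 kb away, which rose from 7.97 to 16.0 CPM.

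**Figure D4:**
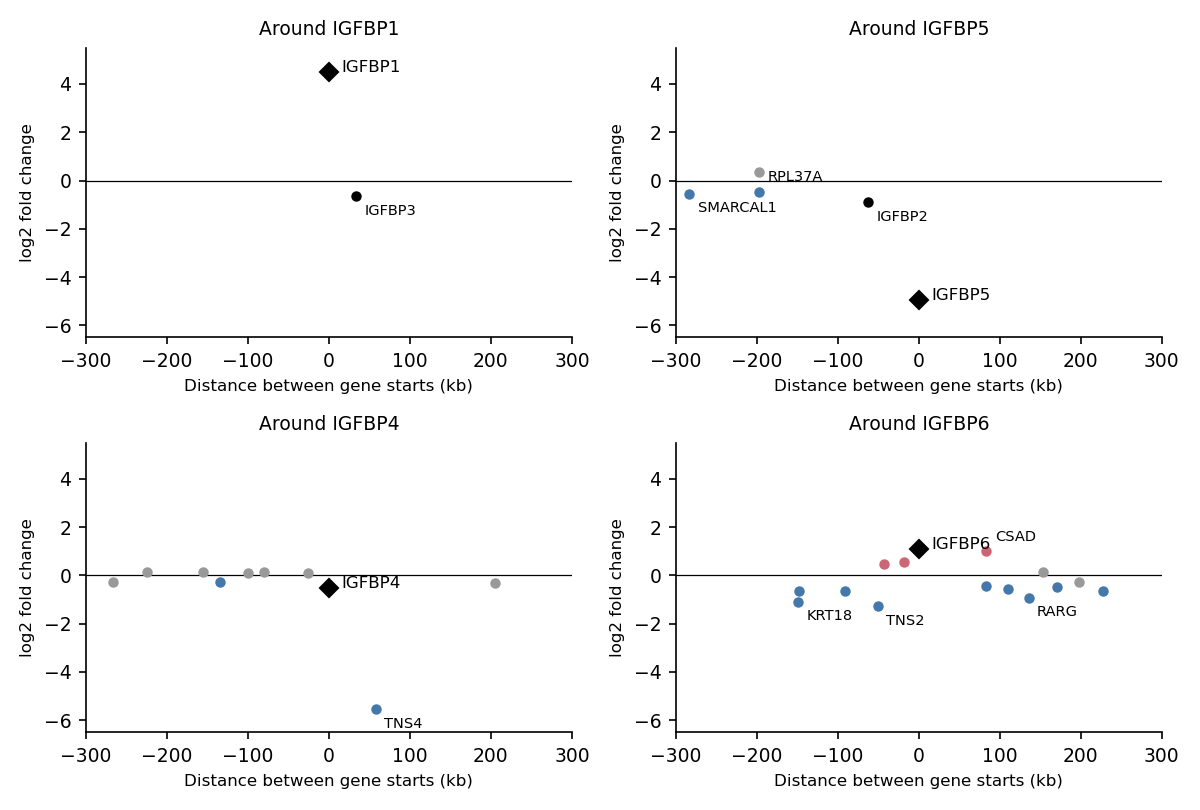
log2 fold change of tested genes within 250 kb of IGFBP1, IGFBP5, IGFBP4 and IGFBP6, by distance between gene starts in kb. Black marks are IGFBP genes, red and blue are genes past the threshold as higher or lower, and grey genes did not pass; TNS4 near IGFBP4 (-5.53) is the neighbour with the largest difference.

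The genes with a profile most like each of the 2 main members were found by Euclidean distance between log2 CPM values over the 6 libraries, each gene centred on its own mean, among 15642 genes with counts in every library. For IGFBP1 they were UNC5B, a netrin receptor (3.98 ± 0.961 to 83.6 ± 7.91 CPM, SD, n = 3), LCN2, the siderophore-binding lipocalin (10.8 ± 0.930 to 175 ± 12.9 CPM), and RASGRP3, an activator of Ras (0.400 ± 0.125 to 9.67 ± 1.11 CPM), at distances of 0.723, 0.757 and 0.835. For IGFBP5 they were the desaturase FADS2 (1617 ± 197 to 66.9 ± 2.83 CPM), the carbonic anhydrase CA9 (133 ± 11.7 to 5.60 ± 0.359 CPM) and the kinesin KIF12 (6.98 ± 0.364 to 0.267 ± 0.0592 CPM), at 0.472, 0.488 and 0.504. With 2 groups of libraries this likeness is mostly the size of the group difference. Of CA9 exon bases, 38.5% lie opposite exons of ARHGEF39.

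The other genes of the IGF pathway were not part of the choice of members and were tested. Their lists were drawn up with earlier results of these data known, and some genes named below were picked by smallest p. Of 117 genes listed by role, 97 were tested, and 36 rose and 37 fell, 75.3% of those tested where 64.6% of all genes passed. The median log2 fold change over the 97 genes was -0.06. With library totals the split was 49 higher and 29 lower in place of 36 and 37, and without control replicate 1 it was 39 and 43. By list, 55.6% to 88.9% of the genes tested passed. The lists are short, and of all genes tested 32.4% passed as higher and 32.2% as lower, so nothing is read from the counts of a list. Fold changes and adjusted p below are from edgeR's quasi-likelihood test with Benjamini-Hochberg adjustment over all genes tested.

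Of the ligands only IGF2 was measured. It had 31 counts over all 6 libraries and was below the filter, and IGF1 and INS were not analysed here. Among receptors IGF1R, which carries the growth signal, fell from 102.3 ± 3.27 to 80.2 ± 1.83 CPM (log2 difference -0.35, SE 0.0688, adjusted p = 0.000397). This call ended with library totals, where it came to -0.09 (adjusted p = 0.234, range over its alternatives 4.83e-07 to 0.234). IGF2R, which takes IGF2 to the lysosome, rose from 582 ± 85.5 to 736 ± 40.6 CPM (0.34, SE 0.0926, adjusted p = 0.00495), and this call ended without control replicate 3, at an adjusted p of 0.0603 (alternatives spanned 1.19e-09 to 0.0603). The insulin receptor INSR was at 51.3 ± 1.85 and 50.02 ± 2.09 CPM and did not pass (adjusted p = 0.688), but passed as higher with library totals (0.23, adjusted p = 0.0189, range over its alternatives 0.0189 to 0.949).

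Among partners and proteases of the binding proteins, 3 of 13 tested genes rose and 8 fell (median -0.59). IGFALS, which encodes the acid-labile subunit, had 38, 20 and 25 counts in the control libraries and 0, 1 and 3 counts in the ARD1 libraries, and fell (adjusted p = 1.25e-05). PAPPA, the IGFBP4 protease, had 33 counts in all and was not tested. Its relative PAPPA2, which cuts IGFBP3 and IGFBP5, was at 0.444 ± 0.214 and 1.01 ± 0.372 CPM and passed (adjusted p = 0.0257), but its groups overlapped. It no longer passed without control replicate 2 or 3 or without ARD1 replicate 1 or 3, at adjusted p of 0.0884, 0.120, 0.134 and 0.0566 (range over its alternatives 0.00558 to 0.134). STC2, an inhibitor of PAPPA, rose from 49.4 ± 2.27 to 89.0 ± 4.36 CPM (log2 difference 0.85, SE 0.0753), while STC1 did not pass at 0.727 ± 0.441 and 0.678 ± 0.112 CPM. The matrix protease MMP7 fell from 52.2 ± 7.78 to 14.7 ± 2.85 CPM (-1.82, SE 0.135), ADAM28 from 75.9 ± 6.45 to 36.8 ± 0.649 CPM (-1.05, SE 0.0813) and the complement protease C1R from 171 ± 15.4 to 88.5 ± 7.65 CPM (-0.95, SE 0.0849). ADAM12 did not pass at 19.9 ± 0.759 and 17.2 ± 0.931 CPM (-0.21), but passed as lower with RLE scaling (-0.23), GC and length offsets (-0.34) and without control replicate 1 (-0.25). Of C1R exon bases, 11.4% are shared with C1RL on the same strand.

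Relatives that carry an IGFBP domain outside the family split evenly, with 4 of 9 tested genes higher and 4 lower. The matricellular proteins CCN1 (6.15 ± 0.636 to 20.02 ± 4.21 CPM, log2 fold change 1.70, SE 0.151) and CCN2 (26.06 ± 3.53 to 47.5 ± 2.57 CPM, 0.86, SE 0.101) rose. CCN4, a Wnt-induced member of that group, fell from 18.9 ± 2.24 to 3.59 ± 0.466 CPM (-2.39, SE 0.139), and KAZALD1 from 59.9 ± 2.89 to 33.9 ± 0.599 CPM (-0.82, SE 0.0771). CRIM1 did not pass at 110.3 ± 6.04 and 104.2 ± 2.08 CPM, and its call depended on the setting. It passed as higher with library totals (0.18, adjusted p = 0.0345) and as lower with GC and length offsets (-0.17, adjusted p = 0.00599) and without control replicate 1 (-0.12, adjusted p = 0.0371), with a range over its alternatives of 0.00599 to 0.639.

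Of cell surface and matrix partners, 3 of 9 tested genes fell and 2 rose. LRP1, a clearance receptor that binds IGFBP3, fell from 1035 ± 125 to 375 ± 10.9 CPM (log2 difference -1.46, SE 0.0840), and TMEM219, another IGFBP3 receptor, from 67.6 ± 2.73 to 40.8 ± 0.875 CPM (-0.73, SE 0.0742). The integrin chain ITGA5, which with ITGB1 binds IGFBP1, fell from 240.2 ± 33.6 to 169.7 ± 8.82 CPM (-0.50, SE 0.0903). ITGB1 did not pass at 1032 ± 83.9 and 1143 ± 48.6 CPM, nor did ITGAV at 603 ± 85.1 and 536.5 ± 9.99 CPM. ITGB1 passed as higher with library totals (0.41, adjusted p = 0.000583, alternatives spanned 0.000583 to 0.270) and upper-quartile scaling. ITGAV passed as lower with GC and length offsets (-0.50, adjusted p = 3.63e-08, alternatives spanned 3.63e-08 to 0.424) and without control replicate 1 (-0.29).

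In receptor signalling 19 of 36 tested genes rose and 9 fell, with a median of 0.20. The 2 insulin receptor substrates went in opposite directions. IRS1 fell from 135 ± 1.56 to 79.1 ± 4.27 CPM (log2 difference -0.77, SE 0.0703), and IRS2, the main substrate in liver, rose from 6.65 ± 1.13 to 19.7 ± 0.847 CPM (1.57, SE 0.126). SOS1, a Ras exchange factor, rose from 79.8 ± 7.91 to 184 ± 3.96 CPM (1.21, SE 0.0796). GRB14, an inhibitor of the insulin receptor, fell from 32.6 ± 4.45 to 9.93 ± 0.378 CPM (-1.71, SE 0.113) and AKT2, the insulin-responsive AKT kinase, from 190.6 ± 17.9 to 99.97 ± 4.31 CPM (-0.93, SE 0.0789). The phosphatase INPPL1 did not pass at 179 ± 11.9 and 166 ± 5.14 CPM (-0.11), but passed as higher with library totals (0.16) and with GC and length offsets (0.22).

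In the growth hormone axis, which drives IGF production in liver, 4 of 7 tested genes fell and 2 rose. The receptor GHR had 56 counts in all and was not tested. Of the 2 STAT5 factors that carry its signal, STAT5A fell from 35.9 ± 4.62 to 17.97 ± 1.23 CPM. STAT5B, which was named after its values were seen, fell from 92.1 ± 6.95 to 78.4 ± 0.120 CPM (log2 difference -0.23, adjusted p = 0.0135), and lost this call with library totals (0.04) and without ARD1 replicate 1 or 3. Of its feedback genes, SOCS2 fell from 11.6 ± 2.54 to 4.07 ± 0.787 CPM (-1.51, SE 0.181) and CISH from 9.85 ± 1.21 to 3.10 ± 0.301 CPM (-1.67, SE 0.151), whereas SOCS1 rose from 0.257 ± 0.186 to 2.14 ± 0.322 CPM (3.01, SE 0.419). SOCS3 did not pass at 24.4 ± 3.13 and 28.3 ± 2.62 CPM (0.22). It passed as higher with GC and length offsets (0.54, adjusted p = 1.29e-05, range over its alternatives 1.29e-05 to 0.509), library totals (0.48), upper-quartile scaling (0.26) and without control replicate 1 (0.27).

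Transcription factors known for IGFBP promoters went both ways, with 6 of 20 tested genes higher and 7 lower. That is 65.0% of those tested, near the 64.6% of all genes, and nothing is read from the count. FOXO1, the insulin-restrained activator of IGFBP1, did not pass at 13.3 ± 2.37 and 12.2 ± 0.892 CPM. HNF4A, a hepatocyte factor, was at 34.98 ± 1.80 and 41.5 ± 1.64 CPM (log2 fold change 0.25, adjusted p = 0.0160). This call was lost without control replicate 2 or 3 or without ARD1 replicate 1 or 2, at adjusted p of 0.0585, 0.115, 0.0712 and 0.0591 (range over its alternatives 8.13e-05 to 0.115). The forkhead factor FOXA2 rose from 77.7 ± 8.57 to 97.95 ± 4.63 CPM (0.33, SE 0.0845).

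The stress-linked factors of that list did not share a direction. ATF4 was at 397 ± 5.09 and 432 ± 14.4 CPM and did not pass (log2 fold change 0.12, adjusted p = 0.109), but passed with upper-quartile scaling, library totals, GC and length offsets and without control replicate 1 (range over its alternatives 1.05e-05 to 0.321). HIF1A, the hypoxia factor, fell from 262 ± 32.4 to 183 ± 5.17 CPM (-0.52, SE 0.0852), and EPAS1 did not pass at 426 ± 34.9 and 421 ± 11.3 CPM, but passed as higher with library totals (0.25). CEBPB rose from 125 ± 14.5 to 228 ± 7.73 CPM (0.86, SE 0.0824) and the glucocorticoid receptor NR3C1 from 54.7 ± 5.01 to 97.3 ± 1.53 CPM (0.83, SE 0.0796). The circadian factor DBP fell from 67.98 ± 6.94 to 20.5 ± 2.48 CPM (-1.73, SE 0.103). Exons of SPHK2 lie opposite 10.1% of DBP exon bases, and those of CEBPB-AS1 opposite 11.8% of CEBPB.

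IGF2 mRNA-binding proteins, which share part of their name with the family but bind RNA, were counted beside it. Of the 3 genes 2 fell. IGF2BP2 went from 81.4 ± 6.07 to 54.6 ± 2.29 CPM (log2 difference -0.58, SE 0.0784) and IGF2BP3 from 73.7 ± 7.38 to 47.5 ± 2.51 CPM (-0.64, SE 0.0862), where 17.9% of exon bases lie opposite MALSU1. IGF2BP1 did not pass at 113 ± 9.60 and 100.4 ± 3.19 CPM (-0.17), but passed as lower with GC and length offsets (-0.25) and without control replicate 1 (-0.13) or 3 (-0.27).

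**Figure D5:**
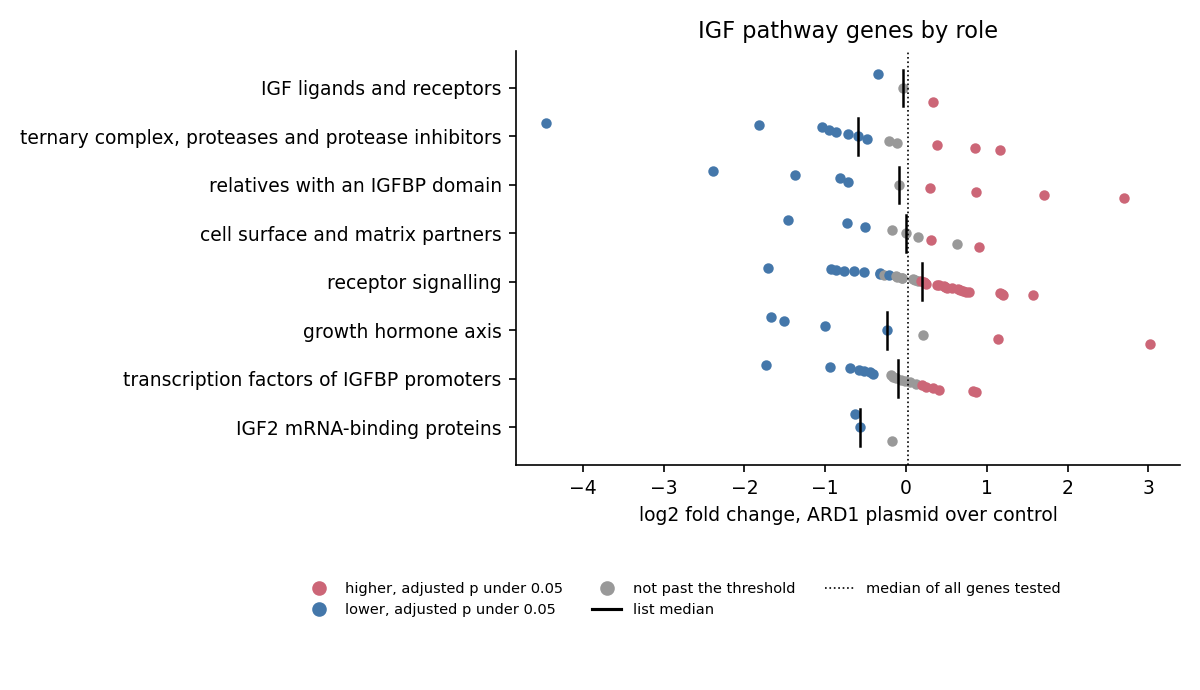
log2 fold change of tested IGF pathway genes by role, 1 point per gene, red and blue for genes past the threshold as higher or lower and grey for the rest, with a bar at each list's median and a dotted line at the median of all genes tested (0.03). Receptor signalling has 19 genes higher and 9 lower, and proteases and partners 3 higher and 8 lower. Of all genes tested 32.4% passed as higher and 32.2% as lower.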

How the data were processed

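Each of 6 libraries was sequenced as total RNA. The labels' protocols give Trizol extraction, removal of ribosomal RNA and a directional kit. The submitters' processing notes name cutadapt 4.6, STAR 2.7.11b and the build GRCh38. How reads were counted (program, strand, annotation) is not given in the sources used here. Raw counts were deposited, as whole numbers per Ensembl gene that were not normalized. Groups and replicate numbers were taken from sample titles. Symbols came from a names table, which matched 25052 of 25071 identifiers, and lengths, GC content and positions from GENCODE 29.

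Genes were kept by filterByExpr (15816 of 25071), scaled by TMM and compared with edgeR 4.0.16 in R 4.3.3 (quasi-likelihood test, Benjamini-Hochberg adjusted p under 0.05, all 6 libraries, no covariate). SEs were derived from the F statistic. CPM per kb used the union of exons. The fits were tested on simulated data with few changed genes, balanced in direction, which does not test the scaling where most genes differ, as here. Alternatives were RLE, upper-quartile and no scaling factors, limma-voom (limma 3.58.1), DESeq2 1.42.0, library sizes that leave out NAA10, no filter, a floor of 1 CPM in 3 libraries, a replicate block, GC and length offsets, leaving out each library, a minimum absolute log2 fold change of 1, and the longest transcript as length.

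The members and lists were chosen with earlier results of these data known. Named were the members, NAA10, 19 pathway genes fixed by name, up to 4 changed genes of each list by smallest p with at least 1 CPM in the higher group, its 2 highest genes that did not pass, the nearest tested neighbours within 250 kb, and 3 genes of like profile. A gene in 2 lists counts under both. Some genes that this rule names are not reported here.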

Additional observations from a re-analysis of the deposited data

How the results depend on the processing

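The counts of members higher (2) and lower (4) were unchanged under the 16 alternatives that refit the data, and no member reversed. Requiring a log2 difference of 1 or more in either direction lowered the genes changed from 10223 to 3406 (1536 higher, 1870 lower) and the pathway genes changed from 73 to 19 (9 higher, 10 lower), by its own construction. The share that passed was then 21.5% of all genes and 19.6% of pathway genes. With library totals 68.6% of all changed genes were higher in place of 50.2%, and 62.8% of changed pathway genes in place of 49.3%. With the longest transcript as length the share of the family was 42.35% for IGFBP1 and 45.19% for IGFBP4 in the ARD1 libraries. IGFBP3 then held a mean of 3.04% in the controls, above IGFBP6 (1.82%) and IGFBP1 (1.68%). In the ARD1 libraries it held 2.19%, above IGFBP5 (1.08%). Among the genes reported above, some that did not pass in the main fit passed in the opposite direction under an alternative. They were INSR (0.23), CRIM1 (0.18), INPPL1 (0.16) and EPAS1 (0.25) with library totals, and INPPL1 (0.22) with GC and length offsets. Other pathway genes turned as well. TRIB3, counted as lower in the main fit (-0.20), passed as higher with GC and length offsets (0.15). The cause was not tested. The replicate numbers showed no sign of pairing. Deviations of same-numbered libraries correlated at 0.017, -0.036 and 0.034, and not every library correlated best with its own number. Such values cannot tell unpaired libraries from a shared preparation with a weak effect, so pairing stays unknown. With the replicate block 10293 genes and 73 pathway genes changed, and with each library left out in turn 9271 to 10984 and 66 to 82. Over the reported genes that the naming rule gives and all settings, calls were lost 10 times and gained 20 times in the same direction. They were gained 5 times in the opposite direction, and other pathway genes lost calls as well. Depth limits IGF2, PAPPA and GHR, which were under the filter.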
